A study of Mus musculus with 10 samples.

Results

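The last sampled interval, from day 6 to day 9 of the reprogramming of mouse fibroblasts, was followed by ATAC-seq, in which a transposase cuts accessible DNA and marks it with sequencing adapters. Peaks of the 2 DAY6 and the 2 DAY9 libraries were merged wherever they overlapped, which gave 103277 regions (208851 when all 10 libraries of the series were merged). A region was called gained when both DAY9 libraries and neither DAY6 library had a peak there, and lost in the reverse case. By this rule 11371 regions were gained and 2025 were lost, 13396 in all, and 41018 regions had a peak in all 4 libraries.

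Cells of both days carried the genotype OKSM Col1a1/M2rtTA ROSA26 on a C57BL/6 x 129 background: one transcript encoding Oct4, Klf4, Sox2 and Myc, placed at Col1a1 and switched on by doxycycline through an activator at Rosa26. All were kept in embryonic stem cell medium with doxycycline (1 ug/ml) and ascorbic acid (50 ug/ml), for 6 or 9 days, and all had been sorted for the surface antigen SSEA1, so neither the sort nor the medium distinguishes the groups. The other groups, of 2 libraries each, served as references: fibroblasts of the same genotype in fibroblast medium without doxycycline (MEF), unsorted cells on day 3 of the same treatment (DAY3), and embryonic stem cells of genotype V6.5 (ESC), for which no cassette is listed, that were grown on irradiated feeder cells without doxycycline. The factors are transgenes that were still being induced at both days, and a sorted fraction is not a uniform population. In such bulk samples a peak in more cells and a more open site in each cell cannot be told apart.

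During reprogramming, fibroblasts first silence mesenchymal genes and take on epithelial features, and the network of stem cell factors around Oct4, Sox2, Nanog and Esrrb becomes active later. SSEA1, a carbohydrate antigen made by fucosyltransferases, appears on cells on the way to pluripotency and is absent from fibroblasts. Distal accessible regions are often enhancers, and they change between cell types more than promoters do.

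Promoters of genes from the fixed lists whose outermost start lay inside a gained or lost region are shown here to let the sites be seen, as the 250 bases before the start, 5′ to 3′ on the gene's strand, from RefSeq on GRCm38.p6. Capitals mark matches on either strand to CACCC (a core bound by Klf factors), ATGCAAAT (the octamer of Oct factors), TGANTCA (the AP-1 site), ACAAAG (a Sox core) and CACCTG (an E-box bound by Snail and Zeb factors), and matches that overlap run together.
Nanog: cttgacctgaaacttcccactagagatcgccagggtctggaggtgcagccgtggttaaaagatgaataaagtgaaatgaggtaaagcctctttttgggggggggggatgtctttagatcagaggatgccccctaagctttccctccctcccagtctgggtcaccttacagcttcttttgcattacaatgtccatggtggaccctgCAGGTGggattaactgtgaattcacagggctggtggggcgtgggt
Krt8: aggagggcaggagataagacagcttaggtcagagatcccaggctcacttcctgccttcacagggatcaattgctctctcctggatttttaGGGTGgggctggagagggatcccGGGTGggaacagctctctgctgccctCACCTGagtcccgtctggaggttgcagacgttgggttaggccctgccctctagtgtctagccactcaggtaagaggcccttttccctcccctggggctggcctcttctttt
Rab25: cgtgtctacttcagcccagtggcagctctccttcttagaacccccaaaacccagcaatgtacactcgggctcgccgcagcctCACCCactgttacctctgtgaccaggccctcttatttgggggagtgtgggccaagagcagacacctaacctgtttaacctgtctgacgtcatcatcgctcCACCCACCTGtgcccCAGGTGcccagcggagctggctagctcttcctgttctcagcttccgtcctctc
Tex19.1: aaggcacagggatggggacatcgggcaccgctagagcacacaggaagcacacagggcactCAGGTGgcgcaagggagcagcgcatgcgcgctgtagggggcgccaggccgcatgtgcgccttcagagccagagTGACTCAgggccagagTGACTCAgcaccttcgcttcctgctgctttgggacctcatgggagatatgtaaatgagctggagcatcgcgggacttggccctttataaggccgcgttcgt
Foxa2: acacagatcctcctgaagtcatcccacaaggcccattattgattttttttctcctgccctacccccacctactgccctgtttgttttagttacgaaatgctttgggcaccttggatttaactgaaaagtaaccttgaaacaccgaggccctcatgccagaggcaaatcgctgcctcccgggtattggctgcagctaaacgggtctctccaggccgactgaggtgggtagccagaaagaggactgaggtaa
Sparc: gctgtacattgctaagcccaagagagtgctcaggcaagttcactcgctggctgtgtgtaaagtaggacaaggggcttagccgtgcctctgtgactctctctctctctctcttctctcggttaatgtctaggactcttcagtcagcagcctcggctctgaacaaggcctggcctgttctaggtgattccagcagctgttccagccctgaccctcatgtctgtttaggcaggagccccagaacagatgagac
The windows lie at chr6:122707239-122707488 (plus strand) for Nanog, chr15:102004343-102004592 (minus) for Krt8, chr3:88548280-88548529 (minus) for Rab25, chr11:121145893-121146142 (plus) for Tex19.1, chr2:148046970-148047219 (minus) for Foxa2 and chr11:55420081-55420330 (minus) for Sparc. The start of Sparc was lost and the other starts were gained. The DAY9 libraries were deeper, as given below. At DAY6 depth the gained region of Nanog would have passed, and those of Tex19.1 and Foxa2 would not. Rab25 had 2 matches to CACCC and 2 to CACCTG, Krt8 2 and 1, and Tex19.1 had 2 to TGANTCA and 1 to CACCTG. The Nanog window had 1 match to CACCTG. No searched letters were found in the windows of Foxa2 and Sparc.

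Gains outnumbered losses among the merged regions: 11.0% were gained and 1.96% were lost. The DAY9 lists were longer, with 77787 and 78308 peaks against 65145 and 58969 at DAY6. They were also deeper: the background pileup, the commonest expected height recovered from the deposited fold and p-value, was 7.33 and 7.37 at DAY9 and 3.45 and 2.33 at DAY6. Of the gained regions, 2326 (20.5%) had a DAY9 height that, scaled down to the background of each DAY6 library, would still have passed the lowest −log10 p-value of the lists, 5. At the depth of DAY6 replicate 1 alone, 4021 (35.4%) would have passed. All lost regions pass at the DAY9 depths by construction, since both are greater than those of DAY6. When each list was reduced to its 58969 best peaks, 5716 regions were gained and 3711 lost. The size of the excess of gains thus moved with depth and list length, and more regions were gained than lost in each of these counts. The depth-matched count cannot decide the direction, because only the gained side was scaled down. Other DAY9 peaks were not thinned, so regions that would become lost at DAY6 depth were not counted.

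The libraries of DAY9 differed by little more than counting. Over 9160 regions with recovered summit heights between 100 and 200, their squared differences were 1.42 times those of pure counting noise. The DAY6 pair gave 3.63 (4659 regions), and pairs of one DAY6 and one DAY9 library gave 5.57 to 7.89. DAY9 was therefore counted as 1 sample, and asking for a peak in both of its lists adds little independent support. With 2 samples against 1, or 2 against 2, the smallest two-sided exact permutation p-value is 0.333, so the calls carry no p-value and the counts are descriptions. Single lists gave more calls. Without DAY6 replicate 1, 18869 regions were gained and 6922 lost. Without DAY6 replicate 2 the numbers were 16431 and 9625. Without DAY9 replicate 1 they were 19784 and 3261, and without DAY9 replicate 2 they were 19418 and 3293.

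Both sets consisted of peaks of middle and low rank. Gained regions had a median rank at 69.7% and 69.2% of the DAY9 lists, counted from the strongest peak, with a median fold enrichment of 3.36 in each. Lost regions ranked at 70.3% and 74.3% of the DAY6 lists, with a median fold of 4.04 and 4.21. Shared regions stood at 27.2% to 35.5% of the 4 lists. No region of the strongest decile of either stage lacked a peak at the other. In the fifth decile, 14.0% of DAY9 regions were without a DAY6 peak and 2.58% of DAY6 regions without a DAY9 peak, and in the last decile these shares were 57.4% and 24.0%. Regions just outside the rule, with a peak in 1 of the 2 libraries of a stage and none at the other, numbered 16055 for DAY9 and 12360 for DAY6, with median ranks of 87.3% to 87.5% and 84.0% to 86.3%.

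**Figure D1:**
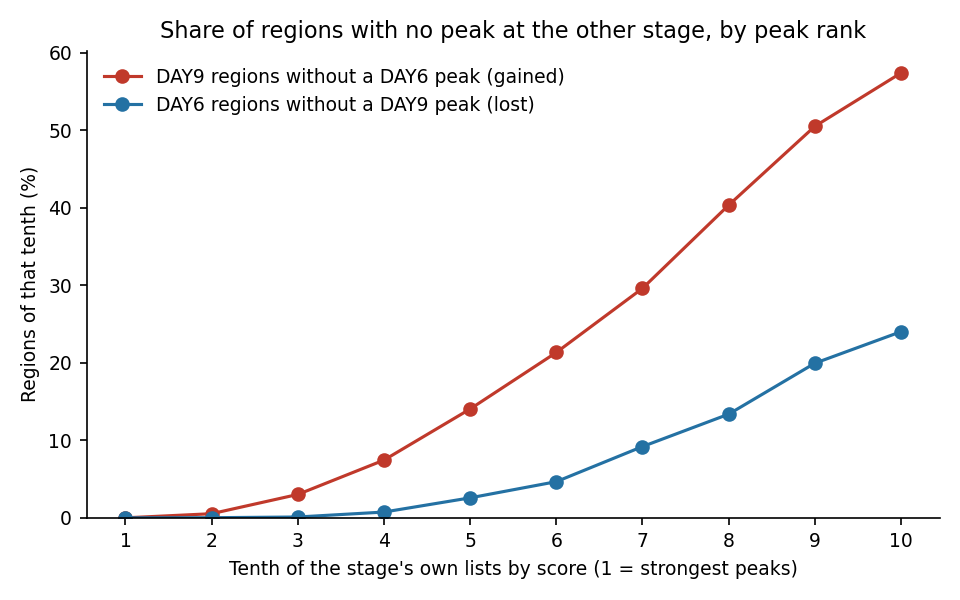
Regions with a peak in both libraries of a stage were placed in deciles by their mean rank in that stage's lists (x axis, 1 = strongest), and the y axis gives the percentage of each decile with no peak in either library of the other stage. The red points (DAY9 regions absent at DAY6) rise to 57.4% and the blue points (DAY6 regions absent at DAY9) to 24.0%, and both are at 0 in the first decile.

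Where gained regions stood at the other stages differed from where lost regions stood. ESC peaks were present at 40.2% and 38.8% of gained regions (replicates 1 and 2) and at 16.5% and 20.2% of lost regions. The means of 39.5 ± 1.02% and 18.3 ± 2.62% (SD, n = 2 libraries) differed by more than the spread between the ESC libraries. Both lay below the share over all merged regions, 48.3 ± 0.335%, and the 72.5 ± 0.157% of shared regions. MEF peaks were found at 12.5% and 8.31% of gained regions and at 39.7% and 31.0% of lost regions, where all merged regions had 34.3% and 27.3%. The MEF values of the sets did not overlap. At DAY3 the contrast was widest: 7.04% and 7.19% of gained and 50.7% and 53.8% of lost regions had a peak, against 38.1% of all merged regions in each library. Among the 2326 gained regions that pass at DAY6 depth the ESC share was 40.9 ± 2.65% and the MEF share 6.71 ± 1.52% (SD, n = 2).

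Histories of single regions were mixed. The largest class of gained regions, 4630 or 40.7%, had no peak at all in MEF, DAY3 or ESC, against 25.8% of all merged regions. A class of 2508 (22.1%) had peaks in both ESC libraries and in no MEF or DAY3 library. Regions with peaks in both MEF libraries and no DAY3 peak made up 364 (3.20%), near the 3.04% of all merged regions. Of the lost regions, 296 (14.6%) had peaks in both libraries of MEF and DAY3 and none in ESC, and 329 (16.2%) had no MEF or ESC peak and peaks in both DAY3 libraries, against 2.04% and 5.90% of all merged regions. Another 423 lost regions (20.9%, against 25.8% of all merged regions) had no peak in MEF, DAY3 or ESC. Only 220 lost regions (10.9%) had peaks in both ESC libraries.

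**Figure D2:**
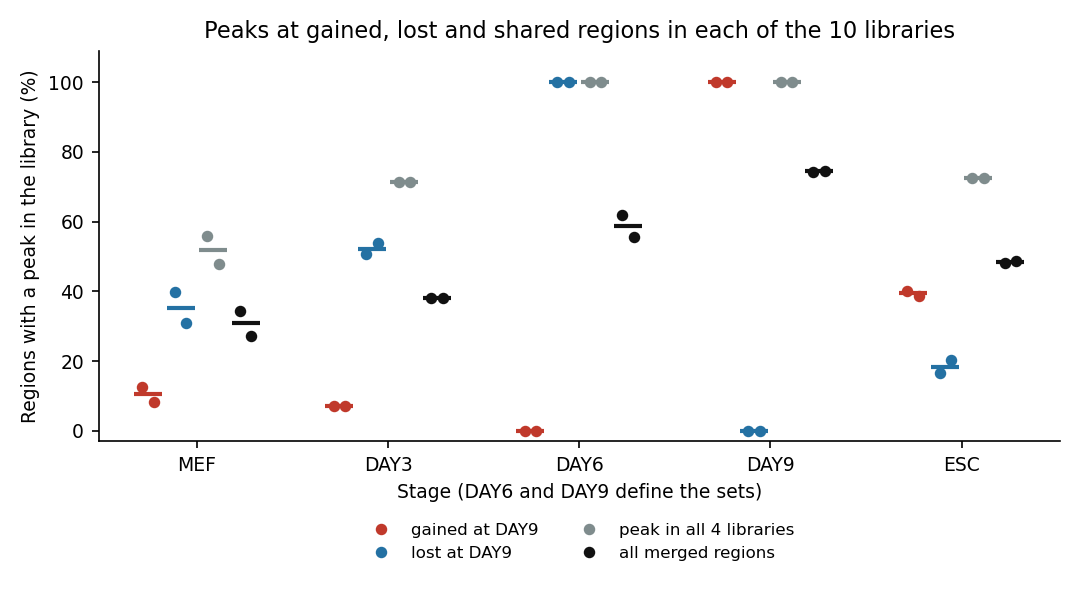
The y axis gives the percentage of regions with a peak in each library, as 1 point per library and a bar at the mean of 2, for each stage on the x axis and for gained (red), lost (blue), shared (grey) and all merged regions (black). Values of 0 and 100 at DAY6 and DAY9 follow from the rule, and at DAY3 the gained regions sit near 7% and the lost regions near 52.3%.

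Gained and lost regions were narrower than shared ones and less often near a gene end. Median width was 459 bp for gained (quartiles 390 and 570) and 476 bp for lost regions (400 and 589), against 818 bp for shared and 522 bp for all merged regions. The median distance to the nearest end of a protein-coding gene was 19.6 kb for gained, 35.5 kb for lost, 9.18 kb for shared and 17.2 kb for all merged regions. Within 1 kb of a gene end lay 766 gained regions (6.74%, exact 95% interval 6.28% to 7.21%) and 86 lost regions (4.25%, 3.41% to 5.22%). The same share was 16.2% over all merged regions and 30.6% over shared regions. A gene body held 51.5% of gained and 51.7% of lost regions, and more than 100 kb from any gene body lay 10.7% and 16.0%. A shared region was within 10 kb of 45.1% of the gained and 37.2% of the lost regions.

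Gained regions that ESC also used lay nearer to genes. The 3256 with peaks in both ESC libraries were near a gene end in 9.06% of cases (exact 95% interval 8.10% to 10.1%), and the 5649 with no ESC peak in 4.71% (4.17% to 5.29%). Their median widths were 466.5 and 459 bp. Lost regions with peaks in both MEF libraries (566) were near a gene end in 5.48% of cases (3.75% to 7.68%), and those without a MEF peak (1160) in 2.85% (1.97% to 3.97%). These intervals cover counting error over regions only.

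**Figure D3:**
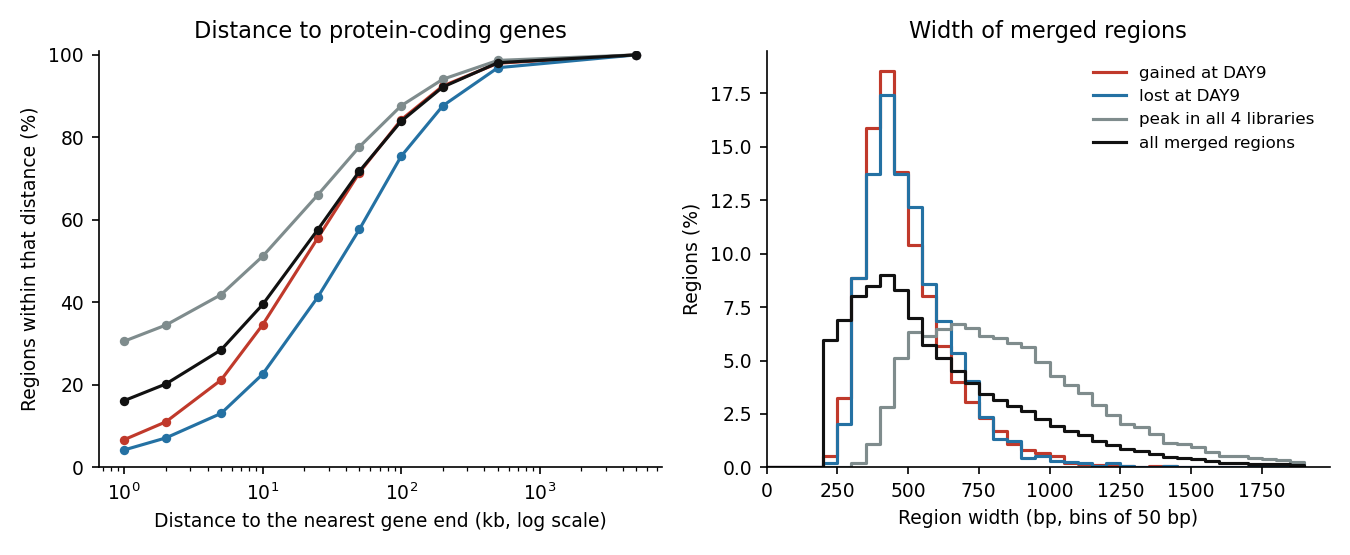
Left, the percentage of regions (y axis) within a given distance of the nearest protein-coding gene end (x axis, kb, log scale). Right, the percentage of regions in each 50 bp bin of width. The lost curve (blue) lies lowest, with a median of 35.5 kb, and gained and lost widths overlap, with medians of 459 and 476 bp beside 818 bp for shared regions (grey).

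The strongest gained regions were peaks of DAY9 with no counterpart in fibroblasts. The 12 with the best mean rank, 1 for each nearest gene, had no peak in any MEF or DAY3 library, 6 of them had none in ESC either, and 3 had peaks in both ESC libraries. Of all gained regions, 84.6% had no MEF peak, 89.3% no DAY3 peak and 49.7% no ESC peak, and 28.6% had peaks in both ESC libraries. The ESC counts of the 12 were thus near the shares of all gained regions. Deposited folds of the 12 at DAY9 ran from 7.13 to 15.1. The first lay 16.6 kb outside Sos1, a Ras activator (chr17:80497093-80497800), with a fold of 13.2 and 13.8 in DAY9 and 5.17 and 8.04 in ESC. Next was a region 41.8 kb from Galnt7, an enzyme of mucin-type glycosylation (chr8:57694850-57695546), at 13.9 and 15.1 in DAY9 and 3.35 in ESC replicate 1 alone. Each of these was in the DAY9 pair and, more weakly, in at least 1 ESC library. A region inside Cadm2, a cell adhesion molecule (chr16:66824461-66825359), reached 14.8 in both DAY9 libraries and had no ESC peak. Inside Gria1, a glutamate receptor subunit (chr11:57044479-57045238), the fold was 13.9 and 12.4, again without an ESC peak. A region 596 kb from Prmt6, an arginine methyltransferase (chr3:110846984-110847701), had 14.1 and 12.7 in DAY9 and 11.8 in ESC replicate 2 alone. The other 7 were nearest to Srgap3, Efnb2, Foxi2, D430041D05Rik, Osbpl1a, Snx9 and 1110059E24Rik. All 12 would have passed at DAY6 depth.

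The strongest lost regions already had peaks at DAY3, and some of them in MEF. Each of the 12 had peaks in both DAY3 libraries, 6 had peaks in both MEF libraries, and none had a peak in an ESC library. Of all lost regions, 43.6% had peaks in both DAY3 and 28.0% in both MEF libraries, and 74.2% had no ESC peak. Folds of the 12 at DAY6 ran from 5.65 to 12.8. The region ranked first, 98.4 kb from Lurap1l (chr4:81052677-81053309), had a fold of 8.57 and 12.1 in DAY3 and 12.8 and 12.6 in DAY6, with no MEF peak. Next to it in rank was a region inside Agmo, an ether lipid enzyme (chr12:37252898-37253334), with 6.34 and 7.18 in DAY3 and 12.3 and 9.92 in DAY6. Both were thus present in DAY3 and DAY6 and in no other stage. A fibroblast region 8.94 kb from Dlc1, a GTPase-activating protein (chr8:36962119-36962629), stood at 14.7 and 11.7 in MEF, 11.9 and 10.3 at DAY3 and 9.88 and 8.42 at DAY6. Inside Efemp1, an extracellular matrix protein (chr11:28906093-28906737), the folds were 6.93 and 4.72 in MEF, 9.59 and 10.4 at DAY3 and 8.40 and 8.12 at DAY6. A region 35.0 kb from Fzd4, a Wnt receptor (chr7:89445077-89445659), had 8.33 and 5.26, 7.12 and 6.06, and 8.53 and 10.8 at the same stages. The other 7 were nearest to P3h2, Atp11a, Bod1l, Tmem167, Tnp1, Tent4a and Pcdh7. Folds depend on depth and are set side by side as the authors' values only.

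**Figure D4:**
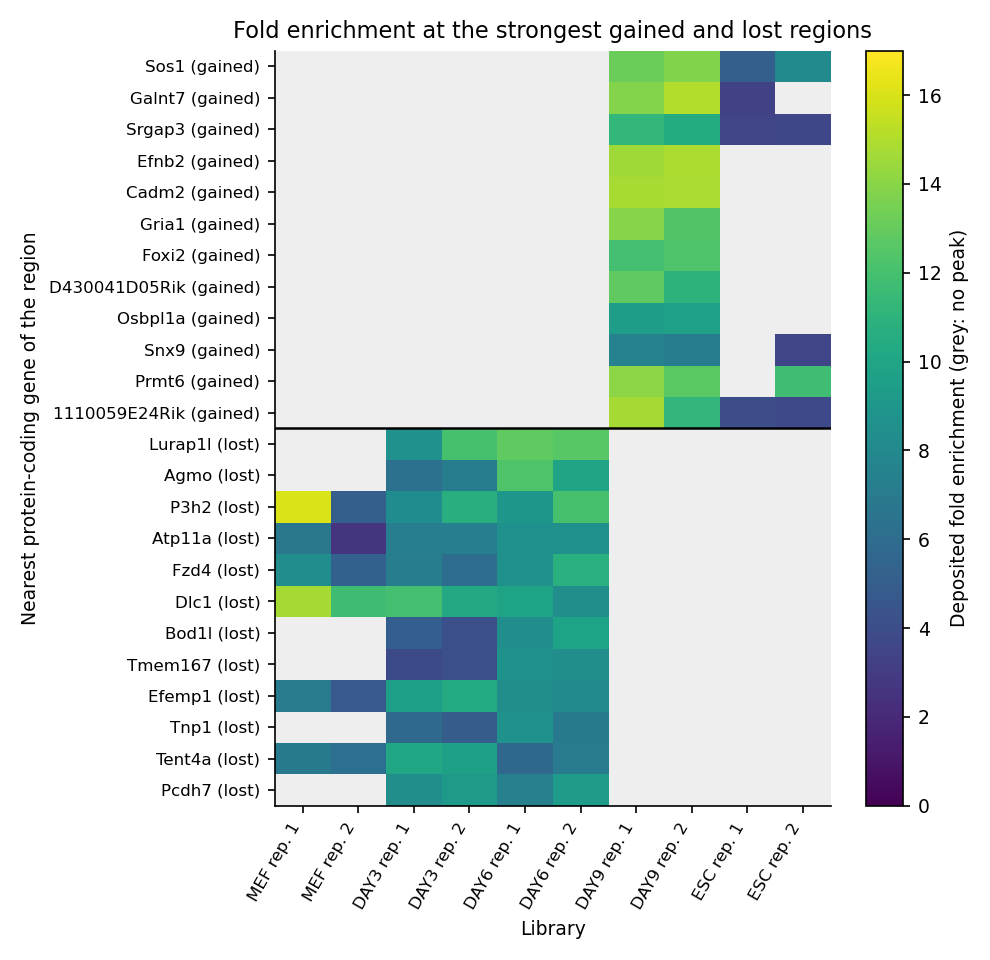
Colour gives the deposited fold enrichment (0 to 17) of the highest peak at each of the 12 strongest gained and 12 strongest lost regions (rows, by nearest gene) in each of the 10 libraries (columns), and grey marks no peak. Gained rows are filled in DAY9 and in part in ESC, and lost rows in DAY3 and DAY6, 6 of them also in MEF.

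Per gene, 6209 of 21887 protein-coding genes (28.4%) had a gained region in the body or within 10 kb, 1190 (5.44%) had a lost region and 622 had both. With gained regions that pass at DAY6 depth the number was 1651 (7.54%). Within 1 kb of a gene end, 816 genes (3.73%) had a gained and 93 (0.425%) a lost region. Genes with a gained or a lost region had a median body of 36.4 and 90.3 kb, beside 17.2 kb of all genes, and the genes with most changes were long. Slc39a11, a zinc transporter, had 11 gained regions over a body of 405 kb, Msi2, an RNA-binding protein, 10 over 379 kb, and Etl4 10 over 900 kb. Chst11 (9), Ablim1, Arid1b, St6galnac3 and Rad51b (8 each) followed. Lost regions were most numerous at Arhgap10 and Dst, with 5 each, and at Pkp4, Cubn, Cobl, Tjp1, Stk39 and Celf2, with 4 each. Cubn, an endocytic receptor, and Tjp1, a tight junction scaffold, had 4 lost and no gained region. Of 100 kb windows, 40 held 5 or more gained regions and 9 held 3 or more lost. The densest gained window, with 8, lay at chr5:14900001-15000000 over Speer4e, Gm9758 and Gm10354, multi-copy genes where read placement is uncertain. Others with 6 included those over Megf6 and Arhgef16, Gm2808 and Gm29721, and Pax7. Lost windows with 3 covered Cubn, Pkp4 and Arhgap10, and 2 others held no protein-coding gene.

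Of the gene lists, epithelial junction and differentiation genes had the largest share with a gained region: 24 of 34 (70.6%, beside 28.4% of all genes), with 47 regions, and 10 of 34 (29.4%, beside 7.54%) at DAY6 depth. The median body of these genes was 15.3 kb, near the 17.2 kb of all genes. Their median number of merged regions was 6, against 3 for all genes. This number was 5 for pluripotency factors, 5.5 for Nodal, BMP and FGF genes and 6 for SSEA1 and surface marker genes. In the other lists it was 2 to 4.5, and its part in the shares was not tested. Within the epithelial list 7 of 34 had a gained region near a gene end (20.6%, beside 3.73%), and 1, Pkp3, had a lost region (2.94%, beside 5.44%). With equal list lengths 17 of 34 genes (50.0%) had a gained region, beside 16.8% of all genes, and leaving out any 1 of the 4 libraries gave 25 to 27 (73.5% to 79.4%, beside 36.6% to 40.4%). Losses were at 4 of 34 (11.8%, beside 9.74% of all genes) with equal list lengths and at 7 of 34 (20.6%, beside 20.1%) without DAY6 replicate 2, both near the share of all genes.

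Krt8, a keratin of simple epithelia, had 4 gained regions. The region over its start, shown above (chr15:102004184-102004638), had no peak before DAY9, a fold of 3.52 and 3.56 in DAY9 and 4.19 in ESC replicate 1. A neighbour 1.16 kb away reached 4.05 and 4.23 and had no ESC peak. Dsp, the desmosome protein desmoplakin, also had 4. Its region at chr13:38162698-38163176 had peaks in MEF replicate 1 (5.44) and both DAY3 libraries (5.71 and 5.42), none in DAY6, 3.00 and 3.94 in DAY9, and 4.91 in ESC replicate 1. The start of Rab25, a GTPase of epithelial vesicle recycling (chr3:88548189-88548594), was at 2.32 and 2.36 in DAY9 and in no other library, and a region 0.51 kb beyond the gene was at 3.99 and 4.28 in DAY9 and 2.66 in DAY3 replicate 2. Cldn6, a tight junction claudin of early embryonic epithelium, had a region over an end of the gene (chr17:23679152-23679805) at 2.97 and 3.34, likewise in DAY9 alone. Of the splicing regulators, Esrp1 had 2 gained regions and Esrp2 had 1. Ehf, an epithelial Ets factor, had the highest value near a gene end in the list, 6.00 and 5.39 (chr2:103302982-103304061), with 3.35 in ESC replicate 1. Prss8, Ap1m2 and Spint1 completed the genes with a gained region near an end. St14 had 3 gained regions, and Cdh1, Ocln, Tjp3, Pkp3, Grhl2, Marveld2, Spint2 and Elf3 had 2 each. Of the 47 regions, 9 had peaks in both ESC libraries and 23 had no peak in MEF, DAY3 or ESC, where 28.6% and 40.7% of all gained regions did. At DAY6 depth 12 of the 47 would have passed, where 20.5% of all gained regions would. Among the genes named here these were 2 each at Krt8 and Spint2, and 1 each at Dsp, Rab25, Cldn6, Ehf, Ap1m2, Tjp3 and Pkp3. No gained region of Esrp1, Esrp2, Prss8, Spint1, St14, Cdh1, Ocln, Grhl2, Marveld2 or Elf3 would have passed.

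Pluripotency factors had a gained region at 19 of 39 genes (48.7%, beside 28.4%), 9 (23.1%, beside 7.54%) at DAY6 depth and 16 (41.0%, beside 16.8%) with equal list lengths. Lost regions were at 4 genes (10.3%, beside 5.44%): Fbxo15, Lifr, Tet1 and Tcf7l1, of which all but Fbxo15 also had gained regions. Without DAY6 replicate 1 they were at 12 (30.8%, beside 15.9%), and without DAY6 replicate 2 or DAY9 replicate 2 at 9 (23.1%, beside 20.1%) and 7 (17.9%, beside 8.77%). Of the 33 gained regions, 15 had peaks in both ESC libraries (28.6% of all gained regions did), none had a peak in DAY3, and 12 had no peak in MEF, DAY3 or ESC (40.7% of all). The region over the start of Nanog, a homeodomain factor of the stem cell network (chr6:122707274-122707674), had no peak in the 6 libraries of MEF, DAY3 and DAY6, a fold of 2.25 and 2.42 in DAY9 and of 5.32 and 3.14 in ESC. The DAY9 values were low and below both ESC values. Nr5a2, a nuclear receptor that can act in place of Oct4, had the most, 6 gained regions, which spread over its body and flank. The highest of them (chr1:136905850-136906661) was at 6.45 and 6.89 in DAY9 with no peak elsewhere, and 1 of the 6 had an ESC peak. Dppa5a, an RNA-binding protein of stem cells, had 3, of which the one 0.62 kb from the gene was at 3.00 and 3.34 and absent from ESC. Outside this region, each DAY6 library already had a peak within 1 kb of an end of Dppa5a, at 4.94 and 3.61. Otx2, a factor of primed pluripotency, had 3 gained regions at 2.53 to 3.32, each with a peak in at least 1 ESC library. No gained region of Dppa5a or Otx2 would have passed at DAY6 depth, while that of Nanog would. Lin28b had 2, Utf1 2, and Esrrb, Klf5, Prdm14, Sall1 and Sall4 1 each. The Sall1 region 8.73 kb away (chr8:89052889-89053564) was at 6.32 and 5.19 in DAY9 and 11.7 and 9.14 in ESC. Pou5f1, Sox2, Klf4, Klf2, Zfp42 and Tfcp2l1 had no gained or lost region, and each had 2 to 5 shared ones. Pou5f1, Sox2 and Klf4 are also carried by the cassette.

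**Figure D5:**
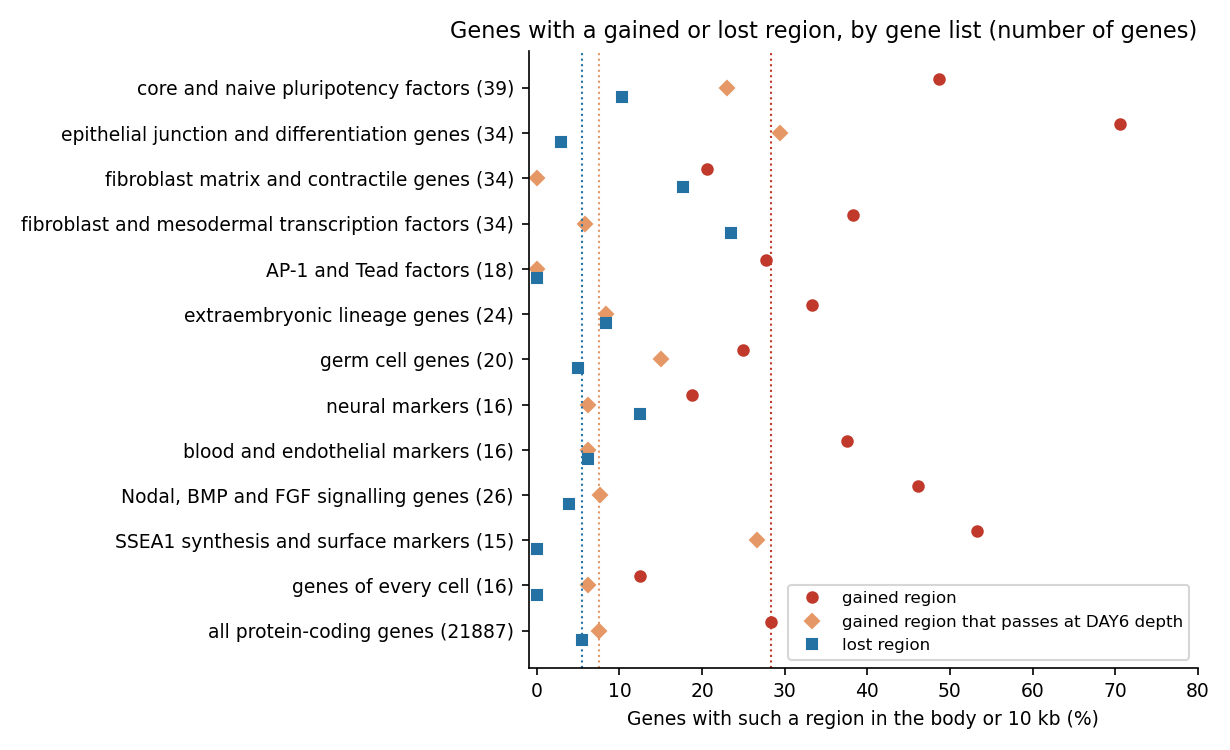
The x axis gives the percentage of each list's genes (y axis, number of genes in brackets) with a gained region (red circles), a gained region that passes at DAY6 depth (orange diamonds) or a lost region (blue squares) in the body or within 10 kb, and dotted lines mark the same 3 shares of all 21887 protein-coding genes. Epithelial genes stand furthest right at 70.6% gained, and the 2 fibroblast lists have the highest lost shares, 23.5% and 17.6%.

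Fibroblast genes had the highest shares of lost regions under the rule for both libraries. Among the other settings both lists stood highest only without DAY9 replicate 1. With equal list lengths Nodal, BMP and FGF genes (23.1%) stood above matrix genes (20.6%). Without DAY6 replicate 1 so did blood and endothelial markers (31.25%) and pluripotency factors (30.8%, against 26.5%). Neural markers stood above matrix genes without DAY6 replicate 2 (37.5% against 35.3%) and without DAY9 replicate 2 (25.0% against 23.5%). The transcription factors stood highest in each of these settings. Under the rule for both libraries, fibroblast and mesodermal transcription factors had lost regions at 8 of 34 genes (23.5%, beside 5.44%), with 12 regions. Matrix and contractile genes had them at 6 of 34 (17.6%), with 8. Median gene bodies were 21.2 and 25.7 kb. With equal list lengths the counts were 8 and 7 genes, beside 9.74% of all genes. Gained regions were found at 13 (38.2%) and 7 (20.6%) of the genes, beside 28.4%, and at 2 (5.88%) and 0 at DAY6 depth, beside 7.54%. Without DAY9 replicate 1 the matrix genes with a gain were 16 (47.1%, beside 40.3%), and without DAY6 replicate 1 the transcription factors with one were 21 (61.8%, beside 39.8%). Losses without DAY6 replicate 2 were at 16 transcription factors (47.1%) and 12 matrix genes (35.3%), beside 20.1% of all genes. Of the 12 lost regions at the transcription factors, 8 had peaks in both DAY3 libraries, 2 in both MEF libraries and none in ESC (43.6% and 28.0% of all lost regions had peaks in both DAY3 and in both MEF libraries). At matrix genes, both MEF libraries shared a peak at 5 of the 8 lost regions and both ESC libraries at 2.

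Runx2, the bone lineage factor, lost a region inside its body (chr17:44709786-44710405) with folds of 12.2 and 6.65 in MEF, 5.87 and 7.01 at DAY3 and 6.96 and 7.51 at DAY6, and had 2 gained regions. Ebf1, an early B cell and mesenchymal factor, lost 3 and gained 1. One of the 3 had a MEF peak, in replicate 1 at 4.45, and all 3 had peaks in both DAY3 libraries. Meox2, a mesodermal homeobox gene, lost a region with 5.55 and 5.58 in DAY3 and 6.29 and 10.5 in DAY6 that had no MEF peak. Prrx1, a regulator of limb mesenchyme, exchanged regions. A lost region 1.30 kb inside the gene covered an inner start (chr1:163313418-163313843), with 4.62 and 2.84 in MEF, 2.71 and 2.46 at DAY3 and 2.51 and 2.64 at DAY6. A gained region 0.85 kb outside (chr1:163315993-163316285) had 2.77 and 2.69 in DAY9 and 3.48 and 2.31 in ESC. It would not have passed at DAY6 depth. A second lost region lay 22.9 kb from a gene end. Foxp1 lost 2 and gained 3, Ebf3 lost 1 and gained 3 (one of them over an end of the gene, at 2.16 and 2.23), and Runx1 gained 4 and lost none. Sparc, a matrix glycoprotein, lost the region over its start (chr11:55419627-55420173), which was at 6.09 and 4.19 in MEF, 3.23 and 3.40 at DAY3 and 3.80 and 3.76 at DAY6, and 3.15 and 4.84 in ESC. It had a peak in every stage but DAY9. A region over an end of Pdgfrb, a receptor of mesenchymal cells, had 7.54 and 4.18 in MEF, 3.10 in DAY3 replicate 2, 3.37 and 5.31 in DAY6, none in DAY9, and 3.28 and 3.41 in ESC. Fbn1 and Cdh2 lost 2 regions each, and Cald1 lost 1 and gained 2.

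The list of Nodal, BMP and FGF genes had them at 12 of 26 (46.2%, beside 28.4%), 2 (7.69%, beside 7.54%) at DAY6 depth, and 1 gene, Dusp6, had a lost one. With equal list lengths 6 of these 26 genes (23.1%, beside 9.74%) had a lost region, and 9 (34.6%, beside 16.8%) a gained one, so the count of losses depended on list length. At DAY6 depth the gains were at the share of all genes. Without DAY6 replicate 1 or DAY9 replicate 1 the gains were at 19 genes each (73.1%, beside 39.8% and 40.3%), and without DAY6 replicate 2 the losses were at 8 (30.8%, beside 20.1%). A region near an end of Nodal, a ligand of the TGF-beta family (chr10:61417983-61418547), was at 3.05 and 2.25 in DAY9 and 2.47 and 3.16 in ESC. It would not have passed at DAY6 depth. Fgf4, the FGF made by stem cells, had 2 gained regions, the higher at 5.16 and 4.30 in DAY9 and 7.95 and 5.51 in ESC (chr7:144851308-144851835). Bmp7, Spry4 and Etv5 also had 2 each. Genes of SSEA1 synthesis and surface markers had gained regions at 8 of 15 (53.3%, beside 28.4%), 4 (26.7%, beside 7.54%) at DAY6 depth and 4 (26.7%, beside 16.8%) with equal list lengths. None had a lost region (beside 5.44%). Fut4, a fucosyltransferase that makes the SSEA1 epitope, was among them, with 2.76 and 4.30 in DAY9 at 7.48 kb from the gene. Kit, a receptor on both this and the germ cell list, had 2 gained regions, at 4.32 and 4.18 and at 7.21 and 9.32, and Itga6 also had 2. AP-1 and Tead factors had gained regions at 5 of 18 genes (27.8%, near the 28.4% of all genes), and Tead1 held 3 of the 7 regions. None of the genes had one at DAY6 depth (beside 7.54%), and none had a lost region (beside 5.44%). Without DAY6 replicate 2 losses were at 5 of 18 (27.8%, beside 20.1%), and without any other single library at 0 or 1.

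Markers of other cell types were counted the same way, beside 28.4% of all genes with a gained and 5.44% with a lost region. Gained and lost regions were at 8 and 2 of 24 extraembryonic genes (33.3% and 8.33%), 5 and 1 of 20 germ cell genes (25.0% and 5.00%), 3 and 2 of 16 neural markers (18.8% and 12.5%), and 6 and 1 of 16 blood and endothelial markers (37.5% and 6.25%). At DAY6 depth these lists had 2, 3, 1 and 1 genes with a gained region (8.33%, 15.0%, 6.25% and 6.25%, beside 7.54%). Single libraries moved these small counts: without DAY9 replicate 2 the gains were at 11 germ cell and 15 extraembryonic genes, and without DAY6 replicate 1 at 9 neural markers, where 40.4% and 39.8% of all genes had one. Blood and endothelial markers had gains at 6 to 10 genes when 1 library was left out (37.5% to 62.5%, beside 36.6% to 40.4% of all genes). Losses moved as well. Without DAY6 replicate 1 they were at 5 blood and endothelial (31.25%) and 3 neural markers (18.75%), beside 15.9% of all genes. Without DAY6 replicate 2 they were at 2 (12.5%) and 6 (37.5%), beside 20.1%. Genes of every cell had gained regions at 2 of 16 (12.5%) and no lost region. The start of Tex19.1, a germ cell and stem cell gene (chr11:121145906-121146270), was at 3.28 and 2.55 at DAY9 against 11.4 and 8.99 for ESC, and no earlier stage had a peak. A start of Sycp2, a protein of meiotic chromosome axes (chr2:178407510-178407977), was at 3.96 and 2.99 in DAY9 and 8.70 and 6.50 in ESC. Foxa2, an endoderm factor, had its start region (chr2:148046056-148046986) at 3.30 and 2.45 in DAY9 and 3.55 and 3.76 in ESC. Gata3 lost an inner start (2.72 and 2.64 in DAY6) and gained a region 0.57 kb beyond its end (3.60 and 3.94 in DAY9). Tfap2c had a gained region near an end at 5.27 and 4.59, and Gata2 and Sox7 had 2 each. Among neural markers Sox3 had one near an end, at 3.12 and 2.75, and Rbfox3 had 4, of which the highest was at 6.12 and 4.66. Hsp90ab1, a chaperone of every cell, had one 0.21 kb from the gene at 2.20 and 2.37. At DAY6 depth no gained region of Tex19.1, Sycp2, Foxa2, Gata3, Sox7, Sox3 or Hsp90ab1 would have passed. That of Tfap2c would have, and 1 each of Gata2 and Rbfox3. The part of other cells in these counts was not tested.

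The genes Nanog, Cdh1, Sall4, Esrrb, Dppa5a and Prrx1 were followed through all libraries by the number of peaks in the body or within 10 kb. Cdh1, the epithelial cadherin, had 2 peaks in each MEF library, 5 in each DAY3 library, 6 in each DAY6 library, 10 and 13 at DAY9, and 13 in each ESC library. The share of all genes with more peaks in both DAY9 than in both DAY6 libraries was not computed, and the DAY9 lists were longer and deeper. Of the additional regions, 2 met the rule for gains, and neither of these would have passed at DAY6 depth. Esrrb, an orphan nuclear receptor of the naive state, had 5 and 6, 1 and 1, 9 and 6, 11 and 8, then 23 and 19 at the same stages, so DAY6 and DAY9 overlapped and ESC stood higher. Dppa5a had 0 and 1 in MEF, none at DAY3, 1 and 2 at DAY6, 4 and 6 at DAY9, and 7 and 6 for ESC. Sall4, a zinc finger factor of stem cells, already had 6 and 4 in DAY6, beside 6 and 6 in DAY9, and Nanog had 3 and 2 beside 3 and 4. Prrx1 had 8 and 6 in MEF, then 4 and 5 at DAY3, 5 and 4 at DAY6, 4 and 3 at DAY9, beside 3 and 5 for ESC. Counts of peaks also move with depth, which was greater at DAY9 than at DAY6.

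Promoter letters were counted over windows of 250 bases before protein-coding starts in the RefSeq promoter table: 190 with the start in a gained region, 32 in a lost region, 11788 in a shared region and 21263 in all. CACCTG was in 30.5% of gained windows (exact 95% interval 24.1% to 37.6%), 12.5% of lost (3.51% to 29.0%), 15.1% of shared and 16.9% of all windows. CACCC was in 68.9% of gained (61.9% to 75.4%), 68.8% of lost, 58.8% of shared and 54.2% of all windows. TGANTCA was in 14.2% of gained (9.58% to 20.0%), 18.8% of lost (7.21% to 36.4%), 3.44% of shared and 6.13% of all windows. Shares of ACAAAG were 14.7%, 15.6%, 10.8% and 14.9%, and of ATGCAAAT 1.58%, 9.38% (3 windows), 1.41% and 1.58%, in the same order. Mean GC content was 58.5% in gained, 54.6% in lost, 61.7% in shared and 55.5% in all windows, and these values moved with the sets. Windows of 1 gene can overlap, and a match describes letters only.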

How the data were processed

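Each library was deposited by the authors as a list of peaks in narrowPeak layout. Per the submitters' processing notes, Bowtie2 2.3.2, MACS2 2.1.1, deepTools 2.3.6 and build mm10 were used, with no role given; filters, duplicate handling and transposase offset are not given in the sources used here. The authors deposited for each peak a score, a fold enrichment (the ratio of its summit to background) and −log10 p- and q-values. Peaks were listed per library, not pooled. Summit pileups were recovered from fold and p-value where −log10 p was at most 300 (tolerance 0.01; at least 99.99% of the recovered peaks of each library).

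Peaks of the 4 lists were merged (any overlap of 1 bp) with Python 3.11.15, numpy 2.4.6, pandas 2.3.3 and scipy 1.17.1, and checked on simulated lists. Genes are RefSeq (GRCm38.p6, the assembly behind mm10). That table gives no strand, so "near a gene" means within 1 kb of either end; exons and introns were not analysed here. All 285 listed genes matched. The promoter table held 17492 of 21887 protein-coding genes (79.9%).

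Members and gene lists were chosen with earlier results of these data known. Named were the 12 gained and 12 lost regions of best mean rank (1 per nearest gene), the 8 genes and 5 windows of 100 kb with most regions, list genes with a region within 1 kb of an end or with 2 or more (a few others serve as examples), and 6 genes followed through all libraries. A few items that this rule names are not reported here. Inner gene starts and genes with no change were named after their values were seen. Nothing in the labels says that replicates were separate cultures, and all libraries carry one batch name. Alternatives were equal list lengths, the top 50% of each list, 500 bp windows, merging within 200 bp, overlap rules, a 2.5 kb distance, all annotated genes, depth matching and leaving out each library.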

Additional observations from a re-analysis of the deposited data

How the results depend on the processing

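With all 4 libraries kept, 84 values were recomputed, of which 48 moved by less than the spread allowed and 36 by more. For counts of regions the spread allowed was a set factor of 1.5. The 48 include values that could not move by construction. These are all values of the replicate block and the lost regions under depth matching. Counts, widths and gene-end shares under an overlap of 50% of peak or region could not move either. No recomputation made lost regions outnumber gained ones, though depth matching scaled down the gained side only and cannot decide this. With equal list lengths 5716 regions were gained and 3711 lost, ESC and MEF shares of gained regions were 30.8% and 7.19%, 5.74% of lost regions were near a gene end, and median widths were 517 and 501 bp. With the top 50% of each list these were 6211 and 1031 regions, 33.1% and 7.13% for gained, a MEF share of 26.7% for lost, 10.7% and 7.95% near a gene end, and 625 and 626 bp. Windows of 500 bp gave median widths of 537 and 553 bp and 5.57% of lost regions near a gene end. A peak in at least 1 library gave 27426 gained and 14385 lost regions, by construction of the looser rule. Depth matching left 2326 gained regions, with an ESC share of 40.9%, a MEF share of 6.71%, 6.15% near a gene end and a width of 574 bp. A distance of 2.5 kb gave 13.1% and 8.59% near a gene end, and all annotated genes gave 12.8% and 9.23%. Chosen after seeing the data, a peak over 50% of the region gave an ESC share of 37.3%, 7.69% and 5.48% near a gene end, and widths of 482 and 507 bp, and starts of the promoter table gave 5.63% of gained regions near a start. Other than by the looser rules and distances themselves, the cause was not tested.

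Leaving out each library in turn gave 16431 to 19784 gained and 3261 to 9625 lost regions. Their ESC shares ran from 34.8% to 44.2% (gained) and 15.8% to 24.7% (lost), their MEF shares from 10.0% to 15.9% and 22.4% to 34.2%, the shares near a gene end from 6.57% to 7.43% and 4.91% to 5.46%, and the median widths from 362 to 477 bp and 325 to 484 bp. A replicate block changed nothing by construction, with 11371 gained and 2025 lost regions, since the rule asks for all 4 libraries. A region under the threshold in the shallower DAY6 libraries is not shown to be closed there.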

Other observations

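Among 1005 microRNA hairpins in the RefSeq table, 28 had a gained and 5 a lost region within 1 kb. Of protein-coding genes, 3.73% had a gained and 0.425% a lost region within 1 kb of an end. An excess at hairpins was not tested. A gained region over Mir191 and 400 bp from Mir425 (chr9:108567977-108568377) had a fold of 2.40 and 2.29 in DAY9 and 3.00 in ESC replicate 1. The region 246 bp from Mir184 (chr9:89802574-89803038) was at 3.84 and 3.94 in DAY9 and 13.8 and 5.57 in ESC. One gained region lay 26 bp from Mir376c and within 1 kb of Mir654 and Mir376b (chr12:109722134-109722692), at 4.20 and 3.58 in DAY9 and in no other library. The lost region 363 bp from Mir30a (chr1:23270876-23271906) had peaks at 5.04 and 5.04 in MEF, 6.39 and 4.63 in DAY3, and 7.41 and 6.14 in DAY6, and none in ESC. These hairpins were chosen after their values were seen.

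Gains ran from 9.62% of merged regions on chromosome 3 to 12.3% on chromosome 11, leaving out chromosome Y with its 114 regions, and losses from 1.35% on chromosome 17 to 2.33% on chromosome 1.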
